A study of Homo sapiens with 9 samples.

Results

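Solute carriers are membrane proteins that move amino acids, sugars, vitamins, ions and nucleotides into cells or between the compartments of a cell. The transporters described here are the 162 solute carrier genes with symbols of the form SLC, number, A, number whose expression reached a mean of at least 1 FPKM over 9 libraries of HCA2, a line of human foreskin fibroblasts. FPKM count sequenced fragments relative to transcript length and library depth, and the transcripts of a gene were summed. They were selected from 334 such symbols among 26196 in the table, after 6 much-studied carriers of glucose, lactate and iron (SLC2A1, SLC2A3, SLC16A1, SLC16A3, SLC11A2 and SLC40A1) had been set aside. Of the remaining 328 symbols, 166 stayed under the threshold and 21 of these were listed at 0 in every library. The mean level thus chose the members and is given as a description.

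Messenger RNA came from 3 groups of 3 libraries. The normal group is labelled proliferative and PD-L1 positive, with no statement of whether those cells were sorted. The other groups are labelled doxorubicin-induced senescent and, per the series' design text, were sorted into a PD-L1-negative and a PD-L1-positive fraction, PD-L1 being the surface ligand of the T cell receptor PD-1. Senescence, a lasting exit from the cell cycle, was induced with 100 nM doxorubicin, a DNA-damaging drug, for 24 hours. The cells were then kept in 100 nM BI-2536, which blocks PLK1, a kinase needed for mitosis, over 12 days in all; these steps are written on every sample's record and are taken here to describe the senescent groups. All cells were grown in DMEM with fetal bovine serum. Drug exposure, time and cell state differ together between senescent and normal libraries, and any difference in sorting cannot be told apart from them. The line is 1 source, and no label says that replicates were separate cultures, so p-values measure the spread between these libraries only. Fewer cells of a kind and less RNA per cell cannot be told apart in such bulk samples either.

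Depth, estimated from the smallest steps between low values, was 11600000 to 17700000 fragments per library. All 15 dermal fibroblast markers were detected in every library, and their summed level ran from 11020 to 14050 FPKM in normal and from 15890 to 19240 in senescent libraries. The summed levels of 6 endothelial markers stayed at or under 0.3005 FPKM, while the 6 melanocyte markers summed to 0.393 to 0.508 in normal and 1.19 to 2.53 in senescent libraries. Most of this was PMEL, a melanosome protein, which rose by 1.02 on the log2 scale (adjusted p = 0.00143 by limma), and its part in the differences below was not tested. Further, the 8 keratinocyte markers summed to 13.0 to 19.0, nearly all of it KRT10. Of 7 leukocyte markers, CD68, a lysosomal membrane protein that fibroblasts also express, averaged 33.1 FPKM in normal and 60.2 in senescent cells, and PTPRC, which all leukocytes carry, averaged 0.170 and 0.234. The 6 pericyte markers summed to 72.0 to 73.4 FPKM in normal and 37.4 to 45.1 in senescent libraries. The 12 proliferation genes fell in all 12 cases; for normal replicates 1, 2 and 3 they summed to 1209, 732.5 and 339.8 FPKM, and the 6 senescent libraries ranged from 135 to 219. Normal replicate 3 therefore stood nearest to the senescent libraries in proliferation. The part that this has in the differences below was not tested.

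Carriers are grouped here by what they move. Amino acid carriers at the cell surface feed protein synthesis and the growth kinase mTORC1, and many are switched on by the transcription factor ATF4 when amino acids run short. The SLC25 family sits in the inner mitochondrial membrane and passes nucleotides, phosphate and metabolites between matrix and cytosol. SLC30 proteins move zinc out of the cytosol and SLC39 proteins move it in, while SLC9 and SLC4 proteins set pH by exchanging protons and bicarbonate.

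Promoter sequences of 5 members are printed because these genes moved most in their class or carry a searched motif, so that the values below can be read against them. They come from the RefSeq table of build GRCh38.p14, which gives 250 bases before and 50 after a start, 5′ to 3′ on the gene's strand. A window was taken only where its start lay within 100 bases of the start of the member's most abundant transcript, which held for 107 of the 134 members with an entry. Capitals in the SLC1A4 and SLC7A1 windows mark the core of the amino acid response element bound by ATF4, searched as TGATGNAA on both strands. Capitals in the SLC38A5 and SLC39A8 windows mark an E-box, searched as CACGTG, which reads the same on both strands. SLC1A1 holds neither of these letters.
SLC1A4, chr2:64989149-64989448, plus strand: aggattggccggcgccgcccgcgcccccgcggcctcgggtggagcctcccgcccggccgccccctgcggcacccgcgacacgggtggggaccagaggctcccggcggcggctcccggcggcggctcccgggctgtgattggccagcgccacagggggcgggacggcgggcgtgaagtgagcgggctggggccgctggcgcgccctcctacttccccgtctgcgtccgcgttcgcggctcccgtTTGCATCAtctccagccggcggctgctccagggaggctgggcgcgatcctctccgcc
SLC7A1, chr13:29595639-29595938, minus strand: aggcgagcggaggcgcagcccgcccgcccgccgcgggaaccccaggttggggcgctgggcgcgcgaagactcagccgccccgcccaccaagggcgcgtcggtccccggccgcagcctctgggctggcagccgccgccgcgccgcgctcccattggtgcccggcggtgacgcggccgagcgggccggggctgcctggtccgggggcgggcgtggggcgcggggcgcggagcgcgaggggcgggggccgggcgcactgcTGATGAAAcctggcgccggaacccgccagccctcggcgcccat
SLC38A5, chrX:48470211-48470510, minus strand: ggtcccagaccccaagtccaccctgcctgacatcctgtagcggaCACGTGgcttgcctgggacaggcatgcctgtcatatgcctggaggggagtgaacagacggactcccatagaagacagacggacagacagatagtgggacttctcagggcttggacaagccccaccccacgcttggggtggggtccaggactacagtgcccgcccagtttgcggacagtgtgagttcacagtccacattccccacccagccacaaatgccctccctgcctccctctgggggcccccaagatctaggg
SLC39A8, chr4:102345433-102345732, minus strand: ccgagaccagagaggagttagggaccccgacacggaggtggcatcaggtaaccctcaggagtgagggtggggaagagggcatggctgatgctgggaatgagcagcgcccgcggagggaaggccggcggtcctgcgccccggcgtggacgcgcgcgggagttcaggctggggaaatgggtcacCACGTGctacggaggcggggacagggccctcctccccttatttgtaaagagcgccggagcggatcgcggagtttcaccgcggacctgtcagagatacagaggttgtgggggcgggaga
SLC1A1, chr9:4490218-4490517, plus strand: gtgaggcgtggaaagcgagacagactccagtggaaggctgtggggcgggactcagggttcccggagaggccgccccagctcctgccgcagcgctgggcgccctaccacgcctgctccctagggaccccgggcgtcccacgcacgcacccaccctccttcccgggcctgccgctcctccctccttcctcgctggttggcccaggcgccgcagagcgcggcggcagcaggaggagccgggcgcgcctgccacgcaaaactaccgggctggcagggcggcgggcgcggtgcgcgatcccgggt

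The response element core began at base -7 in SLC1A4, where it lies on the reverse strand, and at base 8 in SLC7A1, with the first transcribed base counted as 1. It occurred in 2 of 18 amino acid carriers with a window, both of which fell in senescent cells, and in 2 of 89 other members, against 3.62% of all 35116 windows of the table. An E-box occurred in 18 of 107 members (16.8%), against 7.26% of all windows; it began at base -206 in SLC38A5, which fell, and at base -68 in SLC39A8, which rose. The letters TTTCCCGC, an E2F site, were found in 4 of 107 members (3.74%) and 1.63% of all windows. Each member has 1 window, at the start of its most abundant transcript. The windows of the whole table were not limited in this way or by expression. The shares are therefore not like for like, and they were not tested. A match is a description of the sequence and not evidence that a factor binds.

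Mean levels of the 162 members ran from 1.01 to 233 FPKM with a median of 7.95, and 67 members exceeded 10 FPKM. FPKM is a level per length, so members can be ranked by it. SLC25A3, the mitochondrial phosphate carrier, was the most abundant at 233 FPKM, followed by SLC38A2, a glutamine and alanine carrier of the cell surface, at 176, SLC1A5, the main glutamine exchanger, at 113, SLC39A7, which releases zinc from the endoplasmic reticulum, at 111, and SLC25A5, an ADP/ATP carrier, at 109. SLC1A5, SLC39A7 and SLC25A5 lay closer to each other than their spread between libraries, and their order differed by group. It was SLC25A5 (159.9 ± 30.9), SLC1A5 (152 ± 21.9) and SLC39A7 (107 ± 12.0) in normal cells, where the first pair lay within their spread. It was SLC39A7 (114 ± 4.74), SLC1A5 (93.6 ± 11.5) and SLC25A5 (83.7 ± 4.25) in senescent cells. Just inside the threshold lay SLC25A35 at 1.01 and SLC45A4 at 1.04, and just outside lay SLC25A34 at 0.971 and SLC29A4 at 0.941. Between 153 and 161 members were at or above 1 FPKM in each library, and 154 had a mean of at least 1 in all 3 groups.

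Senescent cells differed from normal cells in 83 of the 162 members, with 49 higher and 34 lower. Among the larger classes, carriers of metal ions (40.9% higher, 0.0% lower), of protons, chloride and bicarbonate (43.8% and 12.5%) and of sugars (41.7% and 8.33%) had more rises than falls. Amino acid carriers had more falls (13.6% higher, 40.9% lower), and mitochondrial carriers were called higher in 13.9% and lower in 30.6%, the second share being close to that of all genes tested. The largest rise was that of the glutamate and cysteine carrier SLC1A1 and the largest fall that of the folate carrier SLC19A1. The comparison used limma on log2(FPKM + 0.5), a scale that understates the change of low genes, with Benjamini-Hochberg adjustment over 12763 genes and a call at an adjusted p under 0.05. The share of members called higher was 30.2%, against 23.9% of all genes tested, and the share called lower was 21.0%, against 29.9%. The threshold is a mean over 6 senescent and 3 normal libraries, so it favours genes that are higher in senescent cells. A normal mean under 1 FPKM was found for 5 members, namely SLC25A45, SLC13A3, SLC22A5, SLC22A23 and SLC26A1. They are members only through their senescent libraries, so their rises are no independent support. Both senescent means were under 1 for 1 member. The filter for all genes used the same kind of mean at 0.5 FPKM. The median log2 difference of members was 0.11, with a range from -2.02 to 2.65, and that of all genes was -0.04. The 6 senescent and 3 normal libraries did not overlap for 79 members, or 48.8%, against 48.7% of all genes, so in this respect the members lie at the background.

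**Figure D1:**
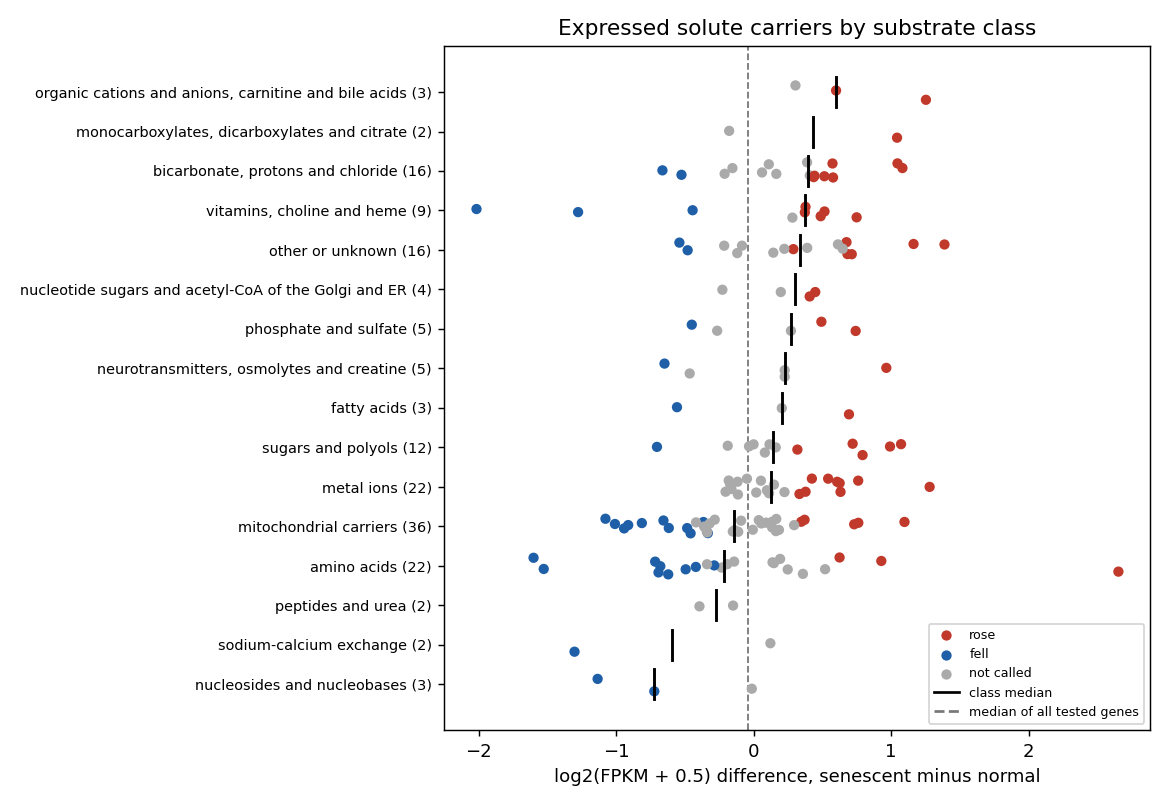
Each point is 1 of the 162 members, placed on the horizontal axis by its log2(FPKM + 0.5) difference, senescent minus normal, in rows by substrate class with the number of members in brackets; red points rose, blue points fell and grey points did not pass the test, the black bar is the class median and the dashed line the median of all tested genes (-0.04). Metal ion carriers hold 9 red and no blue points, and amino acid carriers hold 9 blue and 3 red ones, with SLC1A1 alone at 2.65.

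Among 22 amino acid carriers 9 fell and 3 rose, with a class median of -0.21. In shares, 40.9% were lower and 13.6% higher, against 29.9% and 23.9% of all genes. SLC7A1 brings the cationic amino acids arginine and lysine into the cell. It measured 67.3, 48.2 and 41.7 FPKM in the normal libraries, 17.9, 14.0 and 21.5 in the PD-L1-negative fraction and 17.4, 15.9 and 19.3 in the PD-L1-positive fraction. Every normal library lay above every senescent one, and the mean fell from 52.4 ± 13.3 to 17.6 ± 2.63 FPKM (SD, n = 3 and n = 6; log2 difference -1.53, SE 0.17, adjusted p = 0.000121). SLC38A5, which takes up glutamine and serine, measured 7.29, 4.79 and 4.10 FPKM in the normal libraries, 1.40, 1.88 and 1.20 in the PD-L1-negative fraction and 1.18, 0.989 and 1.90 in the PD-L1-positive fraction. Its groups did not overlap either, and normal replicate 1 was the highest (log2 difference -1.60, SE 0.21, adjusted p = 0.000287).

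The small neutral amino acid exchangers fell together. SLC1A5 measured 156, 128 and 171 FPKM in the normal libraries, 90.5, 115 and 96.9 in the PD-L1-negative fraction and 87.4, 90.0 and 82.0 in the PD-L1-positive fraction, and its relative SLC1A4, which carries alanine, serine and cysteine, measured 13.4, 7.55 and 12.4 FPKM in the normal libraries, 6.36, 6.63 and 7.34 in the PD-L1-negative fraction and 7.08, 5.52 and 5.58 in the PD-L1-positive fraction. For both genes all senescent libraries lay below all normal ones, though for SLC1A4 normal replicate 2 was only just above PD-L1-negative replicate 3 (log2 -0.69, adjusted p = 0.000759, and log2 -0.72, adjusted p = 0.00622). SLC43A1, a carrier of branched-chain amino acids, fell from 4.66 ± 0.607 to 2.85 ± 0.278 FPKM, and SLC38A1, a glutamine carrier, from 30.6 ± 6.28 to 22.5 ± 2.62. SLC36A4 fell by 0.29 on the log2 scale. The calls of these last genes were unequally stable, for SLC43A1 held in all 18 alternative fits, whereas SLC38A1 lost its call in 5 (without normal replicate 1 or 3, PD-L1-negative replicate 2 or PD-L1-positive replicate 2, and under quantile normalization, adjusted p from 0.00367 to 0.0981 over all 18) and SLC36A4 in 9 (adjusted p from 0.0244 to 0.130 over all 18), among them the fits without normal replicate 1 or 2, PD-L1-negative replicate 1 or 2 and PD-L1-positive replicate 1 or 2.

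The heteromeric carriers pair a light chain of the SLC7 family with the heavy chain SLC3A2, which brings it to the surface. SLC3A2 measured 119.9, 85.0 and 138 FPKM in the normal libraries, 80.4, 92.8 and 85.2 in the PD-L1-negative fraction and 81.0, 64.1 and 75.5 in the PD-L1-positive fraction. Normal replicate 2 lay within the senescent range, the gene fell (log2 difference -0.49, SE 0.15, adjusted p = 0.0173), and the call was lost without normal replicate 1 (adjusted p = 0.0613) or 3 (0.0629), with a range of 0.00261 to 0.0629 over the alternatives. Its light chain SLC7A6 fell from 13.8 ± 1.19 to 8.50 ± 1.51 FPKM (log2 -0.68, adjusted p = 0.00234). SLC7A5, the leucine carrier, was not called, with 88.4, 41.0 and 74.0 FPKM in the normal libraries, 54.2, 46.2 and 72.1 in the PD-L1-negative fraction and 46.5, 32.0 and 64.7 in the PD-L1-positive fraction, and its groups overlapped. SLC7A11, the light chain of the cystine/glutamate exchanger, was not called either and averaged 18.2 ± 3.84 FPKM in normal and 20.8 ± 3.43 in senescent cells. SLC7A7, which exports cationic amino acids, measured 0.606, 0.586 and 2.07 FPKM in the normal libraries, 2.33, 2.89 and 2.33 in the PD-L1-negative fraction and 1.96, 2.03 and 2.18 in the PD-L1-positive fraction and rose (log2 0.93, adjusted p = 0.0123). Normal replicate 3 lay among the senescent values for SLC7A7, and its call was lost without normal replicate 1 (adjusted p = 0.0558) or 2 (0.0661), with a range of 4.41e-05 to 0.0661.

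SLC1A1, the high-affinity carrier of glutamate, aspartate and cysteine best known from neurons and kidney, went the other way. It measured 1.15, 1.25 and 1.38 FPKM in the normal libraries, 11.4, 11.2 and 8.53 in the PD-L1-negative fraction and 11.2, 14.1 and 8.003 in the PD-L1-positive fraction. The lowest senescent library was several times above the highest normal one, the mean rose from 1.26 ± 0.116 to 10.8 ± 2.22 FPKM, a ratio of 8.52, and this was the largest change of any member (log2 difference 2.65, SE 0.17, adjusted p = 1.08e-05, 95% interval 2.28 to 3.03). SLC43A2, another carrier of large neutral amino acids, rose from 1.05 ± 0.305 to 1.87 ± 0.234 (log2 0.62, adjusted p = 0.00407). The 10 carriers not called had log2 differences between -0.34 and 0.52, and the abundant SLC38A2 was among them, at 193 ± 19.7 FPKM in normal and 168 ± 12.4 in senescent cells.

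Of 10 amino acid carriers known as ATF4 targets, 9 could be tested, and SLC7A3 was too low to be tested. None rose and 5 fell (SLC7A1, SLC1A4, SLC1A5, SLC43A1 and SLC3A2), with a median log2 difference of -0.49, against shares of 23.9% higher and 29.9% lower among all genes. ATF4 itself fell from 338 ± 51.1 to 231 ± 19.5 FPKM. Of the 16 genes on a list of ATF4 and its other targets, 4 rose and 4 fell, or 25% each way. PHGDH, the first enzyme of serine synthesis, and MTHFD2, a mitochondrial folate enzyme, fell by 1.20 and 0.84 on the log2 scale, and the transcription factor ATF5 by 0.27, the last without a call under quantile normalization (adjusted p = 0.0923, range 0.0121 to 0.0923). DDIT4, an inhibitor of mTORC1, rose by 1.68, the stress sensor SESN2 by 0.95, CTH, which makes cysteine, by 0.99 and the stress factor DDIT3 by 0.56. DDIT3 lost its call without normal replicate 1 or PD-L1-positive replicate 2 (adjusted p from 0.00253 to 0.105 over the alternatives). ASNS, asparagine synthetase and a classical ATF4 target, averaged 46.0 ± 17.1 FPKM in normal and 36.4 ± 6.83 in senescent cells and was not called.

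**Figure D2:**
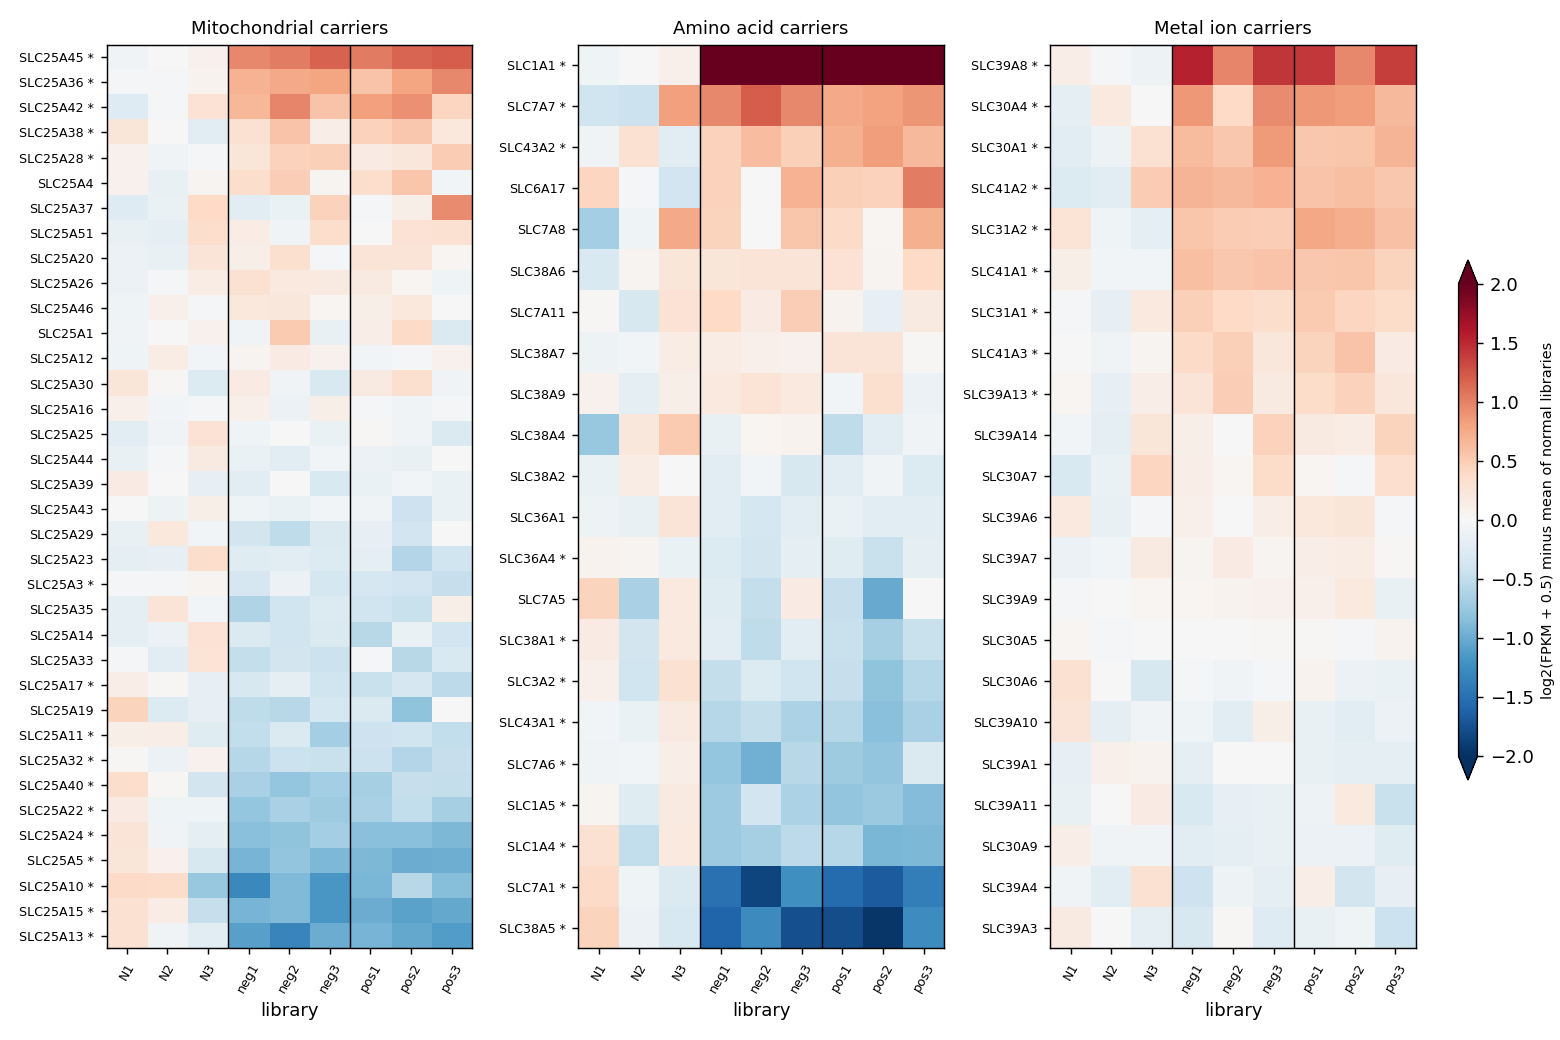
Rows are the mitochondrial, amino acid and metal ion carriers, columns the 9 libraries (N normal, neg PD-L1-negative, pos PD-L1-positive), and colour gives log2(FPKM + 0.5) minus the mean of the normal libraries, capped at 2 in either direction; an asterisk marks members that passed the test of senescent minus normal. Rows are sorted by that difference, SLC1A1 exceeds the colour scale in all 6 senescent libraries, and SLC7A7 in normal replicate 3 is close in colour to the senescent columns.

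Mitochondrial carriers were the largest class, and 11 of 36 fell while 5 rose (median -0.14). The share lower, 30.6%, is close to the 29.9% of all genes, and the share higher is 13.9% against 23.9%. SLC25A5, the ADP/ATP carrier of dividing cells, measured 186, 168 and 126 FPKM in the normal libraries, 82.8, 91.2 and 84.4 in the PD-L1-negative fraction and 84.0, 79.3 and 80.2 in the PD-L1-positive fraction. Normal and senescent values were separate, with normal replicate 3 the lowest of the normal libraries, and the mean fell from 159.9 ± 30.9 to 83.7 ± 4.25 FPKM (log2 difference -0.91, SE 0.12, adjusted p = 0.000237). The related SLC25A4, typical of heart and muscle, averaged 3.28 ± 0.312 FPKM in normal and 4.18 ± 0.754 in senescent cells and was not called (log2 0.29, adjusted p = 0.129). SLC25A6, which encodes a further ADP/ATP carrier, was listed at 0 in all 9 libraries and is no member. Whether this 0 reflects absent RNA or the processing was not tested, so it is not read as a lack of expression. Near-identical sequence among ADP/ATP carriers and their pseudogenes can split reads, so the SLC25A5 level is uncertain. SLC25A3 measured 265, 264 and 282 FPKM in the normal libraries, 213, 248 and 212 in the PD-L1-negative fraction and 214, 207 and 195 in the PD-L1-positive fraction and fell (log2 difference -0.33 with an adjusted p of 0.00603), with no overlap between groups.

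The metabolite carriers of the mitochondrion that fell most serve the malate-aspartate shuttle, the urea cycle route and dicarboxylate exchange. SLC25A13, the aspartate/glutamate carrier citrin, measured 8.67, 6.53 and 5.84 FPKM in the normal libraries, 2.98, 2.47 and 3.22 in the PD-L1-negative fraction and 3.41, 3.16 and 2.93 in the PD-L1-positive fraction. SLC25A15, the ornithine carrier, measured 5.22, 4.63 and 2.85 FPKM in the normal libraries, 1.91, 2.02 and 1.56 in the PD-L1-negative fraction and 1.83, 1.69 and 1.77 in the PD-L1-positive fraction. Both were separate between groups, and normal replicate 3 was again the normal library nearest to senescent cells (log2 difference -1.08, SE 0.13, adjusted p = 0.000216 and -1.01, SE 0.17, adjusted p = 0.000926). SLC25A12, the other aspartate/glutamate carrier, averaged 6.08 ± 0.607 FPKM in normal and 6.33 ± 0.371 in senescent cells and was not called. SLC25A10, the dicarboxylate carrier, measured 10.5, 10.3 and 4.46 FPKM in the normal libraries, 2.93, 4.04 and 3.23 in the PD-L1-negative fraction and 3.97, 5.23 and 4.14 in the PD-L1-positive fraction. Normal replicate 3 lay inside the senescent range, and the call (log2 -0.94, adjusted p = 0.00953) was lost without normal replicate 2 (adjusted p = 0.0536, range 8.85e-05 to 0.0536).

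SLC25A24, which exchanges ATP-magnesium for phosphate, fell from 26.4 ± 4.43 to 14.7 ± 0.783 FPKM (log2 difference -0.81, SE 0.10, adjusted p = 0.000224). The glutamate carrier SLC25A22 (log2 -0.66), SLC25A40, a glutathione carrier (-0.62), SLC25A32, which brings folate and FAD into the matrix (-0.48), the oxoglutarate carrier SLC25A11 (-0.46) and SLC25A17 of the peroxisome (-0.37) also fell. SLC25A45 measured 0.654, 0.711 and 0.785 FPKM in the normal libraries, 1.88, 1.97 and 2.24 in the PD-L1-negative fraction and 1.99, 2.21 and 2.33 in the PD-L1-positive fraction, without overlap, and rose most in the class (log2 difference 1.10, SE 0.11, adjusted p = 6.94e-05). With a normal level under 1 FPKM, it is a member only through its senescent libraries. SLC25A36, a pyrimidine nucleotide carrier, rose from 7.12 ± 0.314 to 12.4 ± 1.18, and SLC25A42, the coenzyme A carrier, from 2.42 ± 0.560 to 4.33 ± 0.702. SLC25A28, which imports iron into mitochondria, and SLC25A38, a glycine carrier of heme synthesis, rose by 0.35 and 0.37 on the log2 scale. Both calls were fragile, since SLC25A28 lost its call without normal replicate 2 (adjusted p = 0.0699, range 0.00336 to 0.0699) and SLC25A38 in 7 of 18 alternatives (range 0.0115 to 0.141), among them the fits without normal replicate 2 or 3, PD-L1-negative replicate 1 or 2 and PD-L1-positive replicate 1 or 2. The abundant citrate carrier SLC25A1 averaged 60.8 ± 3.37 FPKM in normal and 65.9 ± 14.7 in senescent cells and was not called.

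Of 11 tested mitochondrial channels and carriers without SLC symbols, 18.2% were higher and 27.3% lower. Both shares were under those of all genes (23.9% and 29.9%). The pyruvate carrier subunit MPC2 rose, and UCP2, an uncoupling protein (8.94 ± 3.28 to 2.18 ± 0.675 FPKM), the outer membrane channel VDAC3 and the receptor-like protein MTCH2 fell. MTCH2 lost its call in 10 of 18 alternatives, with adjusted p from 0.0135 to 0.151 over all 18: without normal replicate 1 or 2, PD-L1-negative replicate 1 or 3 or PD-L1-positive replicate 1 or 3, with no filter or no trend, and under both other scalings.

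Metal ion carriers rose in 9 of 22 cases and fell in none, with a median of 0.13. Their shares were 40.9% higher and 0.0% lower, against 23.9% and 29.9% of all genes. SLC39A8, which imports zinc and manganese, measured 1.45, 1.26 and 1.17 FPKM in the normal libraries, 4.68, 3.01 and 4.31 in the PD-L1-negative fraction and 4.26, 2.98 and 4.16 in the PD-L1-positive fraction. All senescent libraries were at least 2.98 FPKM and all normal ones at most 1.45, and the gene rose (log2 difference 1.28, SE 0.16, adjusted p = 0.000208). SLC30A1, the zinc exporter of the cell surface, measured 18.5, 19.9 and 26.6 FPKM in the normal libraries, 33.3, 31.3 and 39.1 in the PD-L1-negative fraction and 31.2, 31.8 and 34.5 in the PD-L1-positive fraction, with no overlap, and rose by 0.63 on the log2 scale (adjusted p = 0.00206). The endosomal zinc carrier SLC30A4 rose from 2.13 ± 0.361 to 3.96 ± 0.594 FPKM. SLC39A14, a close relative of SLC39A8 that also takes up iron, averaged 61.9 ± 9.57 FPKM in normal and 72.4 ± 9.72 in senescent cells and was not called, and neither was the zinc releaser SLC39A7, which averaged 107 ± 12.0 FPKM in normal and 114 ± 4.74 in senescent cells.

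Both copper carriers, SLC31A1 at the surface and SLC31A2 inside the cell, rose, by 0.42 and 0.61 on the log2 scale. The 3 magnesium carriers of the SLC41 family rose as well. SLC41A1, the magnesium exporter, measured 12.6, 11.2 and 11.1 FPKM in the normal libraries, 17.9, 17.0 and 17.5 in the PD-L1-negative fraction and 17.0, 17.3 and 16.0 in the PD-L1-positive fraction, with no overlap (log2 0.54, adjusted p = 0.000343), while SLC41A2 and SLC41A3 rose by 0.63 and 0.38. SLC41A2 lost its call without normal replicate 2 (adjusted p = 0.0549, range 8.81e-05 to 0.0549), and so did SLC41A3 (0.0572, range 0.00354 to 0.0572). SLC39A13, a zinc carrier of the secretory pathway, rose by 0.33, and its call was also lost without normal replicate 2 (0.0969, range 0.00446 to 0.0969). The 13 metal carriers that were not called had log2 differences from -0.20 to 0.22.

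Carriers of bicarbonate, protons and chloride rose in 7 of 16 cases and fell in 2, and their median was 0.40. The shares were 43.8% higher and 12.5% lower, against 23.9% and 29.9% of all genes. SLC9A7, a cation/proton exchanger of the trans-Golgi network, measured 3.99, 3.53 and 3.70 FPKM in the normal libraries, 8.79, 8.03 and 7.76 in the PD-L1-negative fraction and 8.79, 9.80 and 7.78 in the PD-L1-positive fraction, with no overlap (log2 difference 1.08, SE 0.10, adjusted p = 4.18e-05). The potassium-chloride exporter SLC12A7 rose by 0.57, SLC4A11 by 0.44, the sodium-bicarbonate importer SLC4A7 by 0.44 and SLC9A5 by 0.58 on the log2 scale. SLC4A7 and SLC9A5 lost their calls without normal replicate 1 (adjusted p = 0.0551, range 0.00615 to 0.0551, and 0.0920, range 0.0123 to 0.0920). SLC4A2, the chloride/bicarbonate exchanger that acidifies the cytosol, fell from 41.6 ± 4.21 to 28.6 ± 1.06 FPKM (log2 -0.53, adjusted p = 0.000538). SLC4A8, a sodium-driven chloride/bicarbonate exchanger, fell by 0.66 and is described with the sorted fractions. SLC12A2, the sodium-potassium-chloride importer, averaged 5.37 ± 0.307 FPKM in normal and 4.80 ± 0.565 in senescent cells and was not called.

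SLC8A1, the sodium/calcium exchanger that expels calcium, measured 19.2, 19.7 and 21.96 FPKM in the normal libraries, 7.94, 8.05 and 8.26 in the PD-L1-negative fraction and 7.84, 8.70 and 6.80 in the PD-L1-positive fraction. Its groups were far apart relative to their spread, and it fell (log2 difference -1.30, SE 0.09, adjusted p = 1.85e-05), whereas SLC24A1 at 2.24 ± 0.138 FPKM in normal and 2.49 ± 0.333 in senescent cells was not called. Among 7 calcium and copper ATPases 42.9% were higher and 14.3% lower, against 23.9% and 29.9% of all genes. The plasma membrane calcium pumps ATP2B4 and ATP2B1 and the Golgi pump ATP2C1 rose, by 0.76, 0.34 and 0.24. The sarcoplasmic pump ATP2A2 fell by 0.46. ATP2B1 lost its call without normal replicate 2, PD-L1-negative replicate 1 or 3 or PD-L1-positive replicate 1 or 3 (adjusted p from 0.00938 to 0.156 over the alternatives). ATP2C1 lost its call without normal replicate 1 or 2, PD-L1-negative replicate 1 or PD-L1-positive replicate 1 or 2 (0.0118 to 0.0970).

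**Figure D3:**
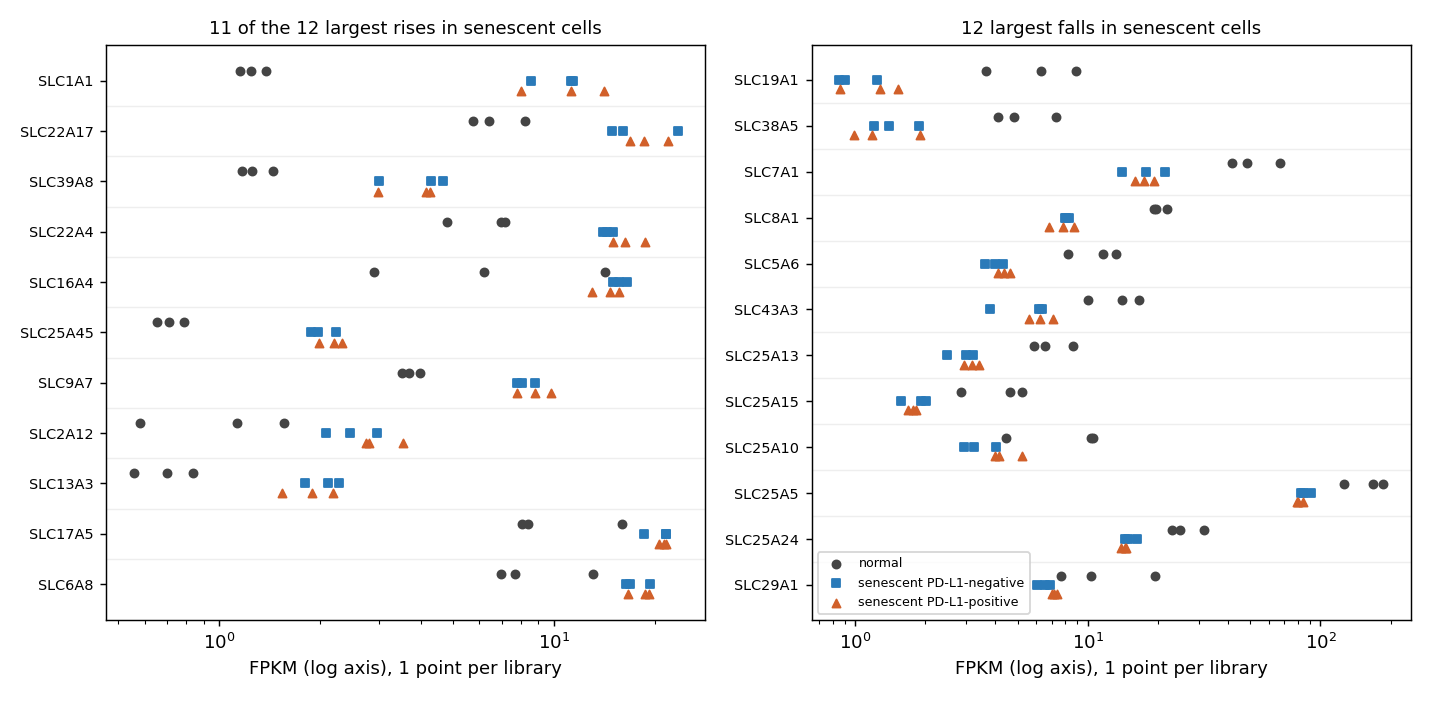
FPKM on a log axis, 1 point per library (circles normal, squares PD-L1-negative, triangles PD-L1-positive), for 11 of the 12 called members with the largest rise (left) and the 12 with the largest fall (right). Squares and triangles lie together for nearly every gene, and the circles are separate except for SLC16A4 and SLC25A10, where normal replicate 3 lies among the senescent points.

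Vitamins, choline and heme are moved by 9 members, of which 5 rose and 3 fell. These are 55.6% and 33.3%, against 23.9% and 29.9% of all genes. SLC19A1, the reduced folate carrier that also takes up methotrexate and cyclic dinucleotides, measured 8.91, 6.29 and 3.65 FPKM in the normal libraries, 0.850, 0.902 and 1.24 in the PD-L1-negative fraction and 1.52, 1.28 and 0.859 in the PD-L1-positive fraction. It had the largest fall of any member, with no overlap, and its normal values spread widely, with replicate 3 the lowest (log2 difference -2.02, SE 0.24, adjusted p = 0.000186, mean from 6.29 ± 2.63 to 1.11 ± 0.279). The proton-coupled folate carrier SLC46A1 averaged 3.63 ± 0.739 FPKM in normal and 4.46 ± 0.255 in senescent cells and was not called. SLC5A6, which takes up biotin and pantothenate, ranged from 8.21 to 13.2 FPKM in normal and from 3.61 to 4.62 in senescent libraries and fell without overlap (log2 difference -1.28, SE 0.14, adjusted p = 0.000114). The riboflavin carrier SLC52A2 fell from 35.2 ± 3.33 to 25.8 ± 2.99. The ascorbate carrier SLC23A2 rose from 4.17 ± 0.137 to 6.19 ± 0.476, the choline carriers SLC44A1 and SLC44A2 by 0.37 and 0.38 on the log2 scale, the lysosomal heme carrier SLC48A1 by 0.49 and the thiamine carrier SLC19A2 by 0.75. SLC19A2 lost its call without normal replicate 1 (adjusted p = 0.0697) or 2 (0.107), over a range of 0.00173 to 0.107, and SLC44A1 without normal replicate 1 (0.0608, range 0.00743 to 0.0608).

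Nucleoside and nucleobase carriers, which salvage building blocks of DNA and RNA, fell in 2 of 3 cases, against 29.9% of all genes called lower. SLC43A3, a purine nucleobase carrier, measured 16.6, 14.1 and 9.99 FPKM in the normal libraries, 6.19, 3.80 and 6.35 in the PD-L1-negative fraction and 6.25, 5.59 and 7.05 in the PD-L1-positive fraction, and SLC29A1, the equilibrative nucleoside carrier, measured 19.4, 10.3 and 7.68 FPKM in the normal libraries, 6.89, 6.04 and 6.54 in the PD-L1-negative fraction and 7.02, 7.14 and 7.37 in the PD-L1-positive fraction. In both genes normal replicate 1, the library with the highest proliferation sum, was highest, and groups did not overlap (log2 -1.14, adjusted p = 0.00103, and log2 -0.72, adjusted p = 0.0226). The lysosomal nucleoside carrier SLC29A3 averaged 1.47 ± 0.302 FPKM in normal and 1.44 ± 0.150 in senescent cells and was not called, and the sign of its difference of -0.01 turned to 0.03 with median-of-ratios scaling.

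The 12 sugar and polyol carriers included 5 called higher and 1 called lower. Their shares were 41.7% higher and 8.33% lower, where all genes tested had 23.9% higher and 29.9% lower. SLC17A5, the lysosomal exporter of sialic acid, measured 8.01, 8.38 and 16.0 FPKM in the normal libraries, 21.6, 21.7 and 18.6 in the PD-L1-negative fraction and 21.4, 21.6 and 20.6 in the PD-L1-positive fraction. The groups did not overlap, though normal replicate 3 was close to the lowest senescent library (log2 difference 0.99, SE 0.19, adjusted p = 0.00199). Of 6 expressed glucose-family carriers of the SLC2 group 4 rose and none fell, or 66.7% and 0.0%, against 23.9% and 29.9% of all genes. SLC2A12 measured 0.583, 1.13 and 1.56 FPKM in the normal libraries, 2.08, 2.96 and 2.47 in the PD-L1-negative fraction and 2.76, 3.54 and 2.80 in the PD-L1-positive fraction, without overlap (log2 difference 1.07, SE 0.20, adjusted p = 0.0017). SLC2A10 and SLC2A11 rose from 12.7 ± 2.34 to 21.0 ± 1.23 and from 1.94 ± 0.606 to 3.66 ± 0.403 FPKM, and SLC2A13, a myo-inositol carrier, by 0.32 on the log2 scale. The SLC2A13 call was lost in 11 of 18 alternatives (adjusted p from 0.0243 to 0.166), among them the fits without normal replicate 1, 2 or 3, PD-L1-negative replicate 1 or 3 and PD-L1-positive replicate 1 or 2. SLC37A4, which brings glucose 6-phosphate into the endoplasmic reticulum, measured 5.38, 6.34 and 3.81 FPKM in the normal libraries, 3.01, 3.59 and 3.04 in the PD-L1-negative fraction and 3.21, 2.62 and 2.23 in the PD-L1-positive fraction and fell without overlap (log2 -0.70, adjusted p = 0.00488).

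Organic cation and carnitine carriers rose in 2 of 3 cases (SLC22A4 and SLC22A5), against 23.9% of all genes called higher. SLC22A4, a carrier of ergothioneine, measured 6.94, 4.80 and 7.16 FPKM in the normal libraries, 14.0, 14.4 and 15.0 in the PD-L1-negative fraction and 16.3, 15.0 and 18.7 in the PD-L1-positive fraction. All senescent libraries were at least 14.0 FPKM and all normal ones at most 7.16 (log2 difference 1.25, SE 0.13, adjusted p = 8.07e-05). The carnitine carrier SLC22A5 rose from 0.907 ± 0.268 to 1.61 ± 0.142 and is a member only through its senescent libraries. SLC22A17, a receptor of the iron-binding protein lipocalin-2, is not in this class and is counted with carriers of other or unknown substrate. It measured 6.41, 5.75 and 8.23 FPKM in the normal libraries, 16.1, 23.5 and 14.9 in the PD-L1-negative fraction and 18.6, 21.9 and 16.9 in the PD-L1-positive fraction. It had the second-largest rise of all members, with no overlap (log2 difference 1.39, SE 0.16, adjusted p = 0.000166).

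SLC16A4, an SLC16 member of uncertain substrate, spread most among normal libraries. It measured 2.90, 6.21 and 14.2 FPKM in the normal libraries, 15.1, 16.6 and 15.6 in the PD-L1-negative fraction and 14.7, 15.7 and 13.0 in the PD-L1-positive fraction. Normal replicate 3 lay within the senescent range and normal replicate 1 far below it. The call (log2 1.16, SE 0.35, adjusted p = 0.02) was lost without normal replicate 1 (adjusted p = 0.0555) or 2 (0.0660), with a range of 0.000222 to 0.0660, and without replicate 1 the log2 difference was 0.65. SLC38A10 rose from 27.2 ± 1.88 to 44.0 ± 2.96 FPKM, SLC22A23 from 0.646 ± 0.0558 to 1.41 ± 0.343 and SLC10A3 by 0.29 on the log2 scale, the last without a call when normal replicate 2 was left out (0.0818, range 0.00271 to 0.0818). Of these, SLC22A23 is a member only through its senescent libraries. SLC10A7, a regulator of calcium in the secretory pathway, and SLC35A4 fell, by 0.54 and 0.48.

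Smaller classes were mixed. SLC6A8, the creatine carrier, measured 6.94, 7.65 and 13.1 FPKM in the normal libraries, 16.8, 19.4 and 16.4 in the PD-L1-negative fraction and 18.7, 19.2 and 16.6 in the PD-L1-positive fraction and rose without overlap (log2 difference 0.96, SE 0.17, adjusted p = 0.00153). SLC13A3, which takes up dicarboxylates such as succinate, measured 0.839, 0.556 and 0.699 FPKM in the normal libraries, 1.80, 2.11 and 2.28 in the PD-L1-negative fraction and 1.54, 2.19 and 1.89 in the PD-L1-positive fraction and rose as well, from a low level (log2 difference 1.04, SE 0.14, adjusted p = 0.000279). Among phosphate and sulfate carriers, SLC26A1 rose from 0.588 ± 0.179 to 1.31 ± 0.0806 FPKM and the lysosomal SLC26A11 from 3.85 ± 0.586 to 5.59 ± 0.412. Both SLC13A3 and SLC26A1 are members only through their senescent libraries. SLC20A1, the more abundant phosphate importer, measured 79.2, 54.5 and 55.6 FPKM in the normal libraries, 43.0, 39.1 and 55.2 in the PD-L1-negative fraction and 45.4, 39.1 and 53.1 in the PD-L1-positive fraction and fell by 0.45 on the log2 scale. The groups of SLC20A1 overlapped, and its call was lost in 8 of 18 alternatives (adjusted p from 0.0202 to 0.156), namely without normal replicate 1, PD-L1-negative replicate 1 or 2 or PD-L1-positive replicate 1 or 2, with median-of-ratios or quantile scaling and with no filter.

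Of the fatty acid carriers, SLC27A1 measured 2.30, 2.92 and 4.62 FPKM in the normal libraries, 5.67, 6.11 and 5.42 in the PD-L1-negative fraction and 4.46, 5.44 and 5.51 in the PD-L1-positive fraction and rose by 0.69 on the log2 scale, and SLC27A4, the main fatty acid carrier of skin, measured 13.5, 9.86 and 9.54 FPKM in the normal libraries, 6.86, 8.07 and 6.84 in the PD-L1-negative fraction and 7.48, 7.31 and 6.70 in the PD-L1-positive fraction and fell by 0.56 (adjusted p = 0.00781 and 0.0038). Normal replicate 3 overlapped the senescent values for SLC27A1, and no library overlapped for SLC27A4. Golgi carriers of nucleotide sugars supply glycosylation; SLC35A1 for CMP-sialic acid and SLC35A3 for UDP-N-acetylglucosamine rose by 0.45 and 0.41, and the UDP-galactose carrier SLC35A2 at 18.6 ± 2.21 FPKM in normal and 15.8 ± 0.816 in senescent cells was not called. The lysosomal peptide and histidine carriers SLC15A3 and SLC15A4 were not called (log2 -0.39 and -0.15).

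Carriers that sit in lysosomes and endosomes cut across these classes. Of 14 tested on that list, 5 rose (SLC17A5, SLC26A11, SLC48A1, SLC30A4 and SLC7A14) and 2 fell (SLC17A9 and SLC36A4), with a median of 0.14. These are 35.7% and 14.3%, against 23.9% and 29.9% of all genes. SLC7A14, an SLC7 member, was under the level threshold, at 0.168 ± 0.0571 FPKM in normal and 0.691 ± 0.216 in senescent cells, and is no member. It passed the 0.5 FPKM filter for testing only through its senescent libraries. Its rise is therefore no independent support, although the counts of this list include it. SLC38A9, the lysosomal arginine sensor, averaged 3.65 ± 0.468 FPKM in normal and 4.08 ± 0.553 in senescent cells and was not called. Of 22 tested genes of amino acid sensing at the lysosome 18.2% were higher and 4.55% lower, both under the shares of all genes. The GTPase RRAGB and the sestrins SESN1, SESN2 and SESN3 rose and NPRL3, a subunit of the inhibitor of the Rag GTPases, fell. SESN3, at 0.0903 FPKM in normal and 1.02 in senescent cells, passed the filter for testing only through its senescent libraries. MTOR averaged 11.4 ± 1.61 FPKM in normal and 9.58 ± 0.818 in senescent cells and was not called. The proton pump that drives many lysosomal carriers, the V-ATPase, rose in 9 of 17 subunits and fell in 3, or 52.9% and 17.6%. Its accessory subunit ATP6AP2 rose from 62.6 ± 5.96 to 156 ± 12.7 FPKM and ATP6V0A1 from 7.70 ± 2.93 to 18.1 ± 1.48, while ATP6V1B2 fell from 48.9 ± 6.60 to 35.7 ± 0.867. The leave-1-out fits ended 3 of these subunit calls, those of ATP6V0A2 without normal replicate 1 (adjusted p = 0.0685, range 0.0124 to 0.0685) and of ATP6V0D1 and ATP6AP1 without normal replicate 1 or 2 (ranges 0.00575 to 0.0617 and 0.00622 to 0.0831). SLC36A4 was likewise unstable, as given above (adjusted p up to 0.130).

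Several carriers need partner proteins, and of 10 tested 4 rose and 4 fell, or 40% each way, against 23.9% and 29.9% of all genes. BSG, the chaperone of lactate carriers, rose from 188 ± 8.94 to 331 ± 34.1 FPKM, and CHP1, a calcium-binding partner of SLC9 exchangers, rose by 0.27. STOM, a membrane scaffold, and the kinase WNK1, which regulates chloride carriers, rose by 0.46 and 0.42. The kinases downstream of WNK1, STK39 and OXSR1, fell by 0.45 and 0.33, WNK4 by 1.14 and SLC9A3R2, a scaffold of SLC9 exchangers, by 0.63. OXSR1 lost its call without normal replicate 1 and under quantile and median-of-ratios scaling (adjusted p up to 0.0963, range 0.0184 to 0.0963).

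Each sorted fraction was also set against the normal libraries. In PD-L1-negative cells 43 members were higher and 31 lower, or 26.5% and 19.1%, against 21.0% and 26.6% of all genes. In PD-L1-positive cells 46 were higher and 31 lower, or 28.4% and 19.1%, against 21.1% and 26.3%. Both comparisons use the same normal libraries, so their values are given side by side only. SLC1A1 differed from normal by 2.62 and 2.69 on the log2 scale, SLC19A1 by -2.11 and -1.92 and SLC8A1 by -1.27 and -1.33. SLC6A9 differed by -0.20 and -0.74, of which the second value was called (adjusted p = 0.0267 by limma), and SLC4A8 by -0.94 and -0.39, of which the first was called; the difference between fractions is tested directly below. The SLC6A9 call was lost without normal replicate 1 (adjusted p = 0.0800) or 3 (0.0663) and without PD-L1-positive replicate 1 (0.0585) or 2 (0.0917).

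The direct contrast of the fractions asked which transporters track PD-L1 among senescent cells. limma called no member, and 0.0% of all 12763 genes, at an adjusted p under 0.05. At an unadjusted p under 0.05 there were 3 members and 222 genes. The log2 differences of members, PD-L1-positive minus PD-L1-negative, lay between -0.54 and 0.56, and the median half-width of the 95% interval was 0.33, so smaller differences could not be resolved. Only SLC4A8 and SLC6A9 differed by 0.5 or more, and the fractions did not overlap for 14 members, or 8.64%, against 9.42% of all genes tested, so this count is at the background.

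SLC17A9, the vesicular carrier that loads ATP into lysosomes and secretory vesicles, had the smallest p of the contrast. It measured 17.7, 17.6 and 19.6 FPKM in the normal libraries, 10.2, 9.51 and 9.85 in the PD-L1-negative fraction and 11.2, 13.9 and 15.3 in the PD-L1-positive fraction. The PD-L1-positive libraries were all above the PD-L1-negative ones, and all senescent libraries were below the normal ones. The log2 difference between fractions was 0.42 (95% interval 0.16 to 0.68, unadjusted p = 0.00534, adjusted p = 1 in the limma fit). An exact two-sided permutation test gave p = 0.1, the smallest that 3 against 3 libraries allow. Senescent minus normal was -0.65 (adjusted p = 0.0007).

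SLC4A8 measured 3.43, 3.87 and 2.10 FPKM in the normal libraries, 1.62, 1.04 and 1.42 in the PD-L1-negative fraction and 2.55, 1.66 and 2.54 in the PD-L1-positive fraction. Its PD-L1-positive values were above the PD-L1-negative ones, by a narrow gap between replicate 2 of the first and replicate 1 of the second (log2 0.56, 95% interval 0.04 to 1.07, exact permutation p = 0.1). SLC4A8 as a whole was lower in senescent cells (log2 -0.66, adjusted p = 0.0181), a call lost without normal replicate 1 (0.0656) or 2 (0.0922), over a range of 0.00289 to 0.0922. SLC6A9, a glycine carrier, measured 14.7, 9.45 and 14.6 FPKM in the normal libraries, 11.2, 9.71 and 12.3 in the PD-L1-negative fraction and 7.71, 5.27 and 9.97 in the PD-L1-positive fraction, and here the fractions overlapped (log2 -0.54, 95% interval -1.06 to -0.02, exact permutation p = 0.2). Next came the myo-inositol carrier SLC5A3, with mean levels of 6.13 FPKM in the negative and 7.99 in the positive fraction, SLC7A11 with 23.2 and 18.4, and SLC35A1 with 11.1 and 9.69. All 6 had an adjusted p of 1.

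**Figure D4:**
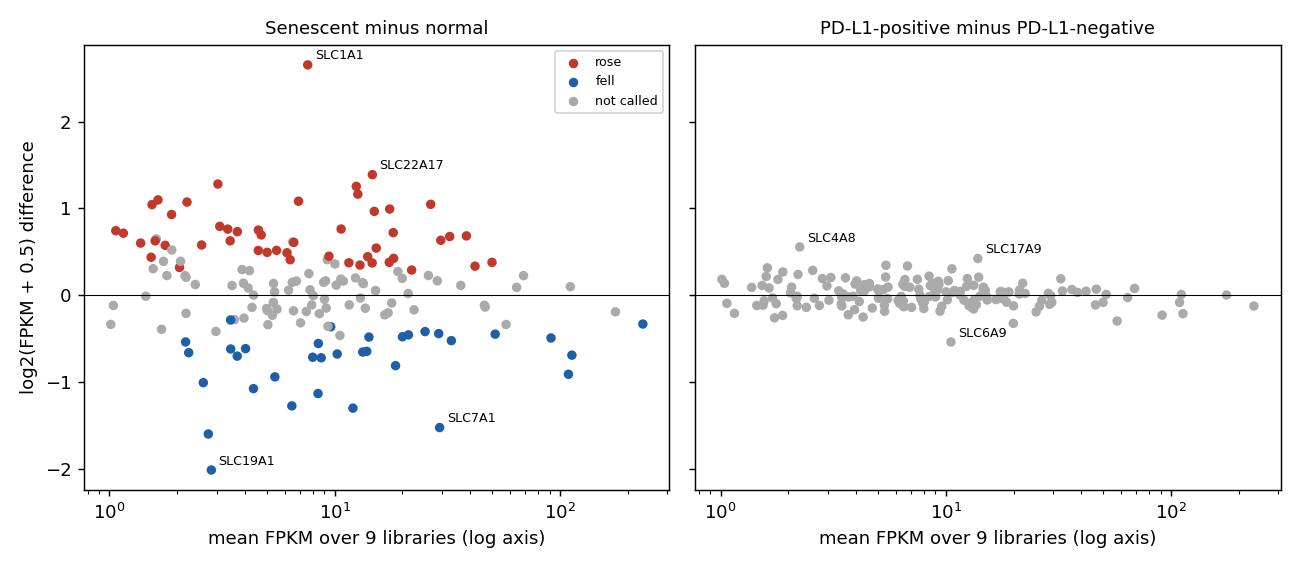
Each point is 1 of the 162 members, with mean FPKM on a log axis and the log2(FPKM + 0.5) difference on the vertical axis, for senescent minus normal (left) and PD-L1-positive minus PD-L1-negative (right) on the same scale. The left panel spans -2.02 to 2.65 with 49 red and 34 blue points, and the right panel spans -0.54 to 0.56 with no called point.

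The normal libraries varied more than either senescent fraction. Members with an SD over 0.5 on the log2 scale numbered 14 for the normal group, 1 for the PD-L1-negative fraction and 2 for the PD-L1-positive one, against 1271, 280 and 441 of 12763 genes. The 5 members with the widest normal spread were SLC16A4, SLC38A11, SLC7A8, SLC7A7 and SLC38A4. SLC38A11 measured 0.293, 1.29 and 1.80 FPKM in the normal libraries, 2.08, 1.25 and 1.52 in the PD-L1-negative fraction and 2.07, 2.27 and 1.95 in the PD-L1-positive fraction, and SLC7A8, a light chain for neutral amino acids, measured 4.87, 7.54 and 14.0 FPKM in the normal libraries, 11.2, 8.13 and 12.1 in the PD-L1-negative fraction and 10.6, 8.30 and 13.5 in the PD-L1-positive fraction. In these genes normal replicate 1 was low and replicate 3 was level with senescent cells. SLC38A4 measured 2.44, 5.31 and 6.67 FPKM in the normal libraries, 3.98, 4.59 and 4.70 in the PD-L1-negative fraction and 2.99, 3.76 and 4.22 in the PD-L1-positive fraction, and its log2 difference of -0.14 turned to 0.12 without normal replicate 3. For 48 of the 83 called members, or 57.8%, normal replicate 3 was the normal library nearest to the senescent mean, as it was for 65.3% of 6865 called genes. Normal replicate 3 also had the lowest proliferation sum, 339.8 FPKM against 732.5 and 1209. Of the 83 calls, 4 were lost without it, 12 without replicate 1 and 13 without replicate 2. The calls of SLC16A4 and SLC7A7 were among those lost without replicate 1 or 2 (adjusted p up to 0.0660 and 0.0661).

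Most members were read out through a stable transcript. Of the 109 members with several listed transcripts, 101 had the same leading transcript in normal and senescent cells, and in 60 it held over 80% of the gene. In 8 members the leading transcript differed. For SLC29A1, NM_001304463 held 60.9% of the gene in normal and 42.0% in senescent cells, and NM_004955 held 10.1% and 42.6%, where NM_004955 averaged 1.26 FPKM in normal and 2.91 in senescent cells. For SLC30A7, a zinc carrier of the Golgi, NM_133496 held 62.7% of the gene in normal and 34.4% in senescent cells, NM_001144884 held 37.3% and 65.6%, and the sum was not called. The shares are authors' estimates for transcripts that overlap, and they were not tested.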

How the data were processed

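Polyadenylated RNA of 9 libraries was made into strand-marking libraries, per the labels' protocols. The authors deposited FPKM values for 52741 transcripts. The submitters' processing notes name STAR 2.5.2a, HTSeq 0.11.2, DESeq2 1.22.2 and build hg19; which program made the FPKM values is not given in the sources used here. The transcripts of each symbol were summed, giving 26196 symbols. Genes with a mean of at least 0.5 FPKM were tested with limma 3.58.1 (intensity trend, R 4.3.3) on log2(FPKM + 0.5), in 1 fit of the 3 groups. Adjustment was by Benjamini-Hochberg over all genes tested, with a call at an adjusted p under 0.05, and the script was tested on simulated data. Deposited values carry no counts, so intervals come from the spread between libraries.

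The members, substrate classes and gene lists were chosen with earlier results of these data known. Named members are the 12 called members with the largest rise and the 12 with the largest fall, the extremes and the most abundant member of each class, the 6 with the smallest p between fractions, the 5 with the widest normal spread, genes next to the threshold and members of the lysosomal and ATF4 lists with a few fixed carriers. Other members and genes of the lists are named to complete counts and were chosen after their values were seen. The alternatives were other pseudocounts, filters and scalings, no trend, a replicate block, transcripts with NM identifiers only, only the libraries compared and each library left out in turn. Python 3.11.15, pandas 2.3.3, numpy 2.4.6 and matplotlib 3.10.9 were used for sums and plots. A few members and list genes are counted in totals but are not reported here by name.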

Additional observations from a re-analysis of the deposited data

How the results depend on the processing

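No count of called members moved by over 1.5 times under any alternative run. With each library left out in turn, senescent minus normal gave 39 to 59 members higher and 32 to 36 lower, PD-L1-negative minus normal 32 to 47 and 25 to 30, PD-L1-positive minus normal 33 to 55 and 26 to 32, and the fractions 0 to 0. Of the 83 called members, 64 kept their call in all 18 alternatives with that comparison. A threshold of 0.5 FPKM gave 174 members (52 higher, 37 lower) and one of 2 FPKM gave 144 (40 and 34). Signs were followed for called members and for some uncalled ones. The latter were class extremes, the most abundant of a class, those with the smallest p between fractions or those with the widest normal spread. Among these, signs turned in 3 members that were not called, and the cause was not tested. SLC29A3 went from -0.01 to 0.0304 with median-of-ratios scaling and to 0.27 with NM transcripts only, and from -0.0925 to 0.11 with libraries left out. With libraries left out SLC38A4 ranged from -0.52 to 0.12 and SLC6A6 from -0.13 to 0.46.

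Replicate numbers were not taken to pair the samples, since not every correlation of same-numbered deviations passed 0.1. They lay between -0.0111 and 0.132 for normal with senescent libraries. Between the fractions they were 0.0942, 0.223 and 0.457, against -0.307 to 0.141 for different numbers, and 5 of 6 libraries correlated best with their own number, a hint from the data and not the design. With the replicate number as a block, 7155 genes were called. SLC2A13 lost its call (adjusted p = 0.0546), no other member did, and still 0 members were called between the fractions. The intervals and permutation tests given for the fractions take no account of any pairing. Fragments were estimated only for members with 1 listed transcript of known length. Among these the fewest in a library were 21.8, for SLC25A35, and other members may have fewer. Low members are the least certain.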

Other observations

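A carrier below the level threshold changed by more than most members. SLC16A6, an SLC16 member, measured 0.0427, 0.0436 and 0.0533 FPKM in normal, 1.26, 0.561 and 1.53 in PD-L1-negative and 1.17, 0.701 and 1.78 in PD-L1-positive libraries. The groups did not overlap, and the gene rose by 1.56 on the log2(FPKM + 0.5) scale in senescent cells (SE 0.25, adjusted p = 0.000753 by limma). SLC16A6 passed the 0.5 FPKM filter for testing only through its senescent libraries, so its p-value is a description and no independent support. It was singled out after its values were seen. It is 1 of 6 carriers that missed the threshold on average but had a group mean of at least 1 FPKM. Of these, SLC16A13, SLC45A3 and SLC4A5 fell in senescent cells, with log2 differences of -0.63, -0.63 and -0.42, and SLC25A34 and SLC4A4 were not called.

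Of the 6 carriers set aside, SLC2A1, SLC11A2 and SLC40A1 rose and none fell. Of the 6 pericyte markers, CSPG4 and MCAM, which fibroblasts in culture also express, fell by 1.53 and 1.37 on the log2 scale, RGS5 fell by 0.46, and NOTCH3 and ABCC9 rose by 0.95 and 0.54. RGS5 lost its call in 3 of 16 alternatives, without normal replicate 1 or 2 or PD-L1-positive replicate 2 (adjusted p from 0.00685 to 0.0825 over all 16).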
